A study of Mus musculus with 10 samples.

Results

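The retinoid genes described here are the 3 retinoid X receptors (Rxra, Rxrb, Rxrg), the 3 retinoic acid receptors (Rara, Rarb, Rarg), 2 retinaldehyde dehydrogenases (Aldh1a1, Aldh1a2) and the retinoic acid hydroxylase Cyp26b1. They were taken by gene symbol from the deposited table of the mouse lumbar spinal cord, 9 of its 24411 genes, and all 9 passed the filter on low counts that left 13287 genes for testing. The set was chosen by the depth-scaled counts of this same comparison, in which Rxrb was lower with paclitaxel without overlap, so the difference between the groups is given for all 9 genes as a description and not as a test. The tissue was lumbar spinal cord from mice given paclitaxel, a microtubule-stabilising cancer drug that causes a painful neuropathy (5 libraries), or from mice given vehicle (5 libraries). The sources used here do not give strain, sex, age, dose or time after treatment, nor whether each library came from 1 animal, so any p-value measures only the spread between these libraries. By its title, the study concerns a rise of calcitonin receptor-like that depends on MLL2.

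Vitamin A (retinol) is oxidised in cells to retinaldehyde and then, by the ALDH1A enzymes, to retinoic acid. Retinoic acid enters the nucleus and binds the receptors RARα, RARβ and RARγ, which sit on DNA as pairs with an RXR and switch target genes on when the ligand is present. RXRs also pair with the receptors for thyroid hormone, vitamin D, fatty acids and oxysterols, so they serve several hormone pathways at once. CYP26 enzymes destroy retinoic acid and so set where and for how long it acts. In the embryonic cord, retinoic acid made by ALDH1A2 patterns neurons along the body axis, and in the adult the meninges remain a known site of ALDH1A2.

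Rarb is the textbook target of its own ligand, and its promoter shows how such a gene is recognised. The RefSeq window on GRCm38.p6, 250 bases before to 50 bases after the annotated start, lies on the minus strand at chr14:16575427-16575726. The capitals mark the direct repeat of GTTCA, the core of the retinoic acid response element known for this gene.
Rarb promoter: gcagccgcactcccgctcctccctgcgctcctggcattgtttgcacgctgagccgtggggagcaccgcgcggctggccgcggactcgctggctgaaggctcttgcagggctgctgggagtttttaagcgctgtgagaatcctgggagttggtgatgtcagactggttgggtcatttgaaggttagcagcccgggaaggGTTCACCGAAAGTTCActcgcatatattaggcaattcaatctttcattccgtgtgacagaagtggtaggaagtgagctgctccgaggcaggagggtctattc
The repeat was searched as GTTCANNNNNNGTTCA on both strands and was found at bases 199 to 214 of this window. It was present in 25 of 32851 RefSeq promoter windows of this length (0.0761%), and among the 17 windows of the 9 genes only in this one. The related repeat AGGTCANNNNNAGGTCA was present in 3 of all windows and in 0 of the 17. Such matches describe the letters and do not show that a receptor binds there.

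Rxrb, the gene from which the set was built, starts next to Slc39a7, which encodes the zinc transporter ZIP7. The genes point away from each other with 121 bases between them, and the first promoter window of Rxrb shares 221 bases with that of Slc39a7. RefSeq gives Rxrb 2 windows, and the first, on the plus strand at chr17:34031562-34031861 (GRCm38.p6), is shown because the levels of both genes are given further on. The capitals mark matches to the YY1 motif, searched on both strands with the third letter left free.
Rxrb promoter: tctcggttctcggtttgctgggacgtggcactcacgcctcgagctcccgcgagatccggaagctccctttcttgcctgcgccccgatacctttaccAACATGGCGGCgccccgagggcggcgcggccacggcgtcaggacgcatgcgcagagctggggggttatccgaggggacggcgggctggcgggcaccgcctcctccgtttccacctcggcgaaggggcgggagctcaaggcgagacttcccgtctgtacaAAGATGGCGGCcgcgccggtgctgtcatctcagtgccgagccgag
This window held 2 matches, at bases 97 to 107 and 256 to 266, while 0.986% of all windows held at least 1. It also held 2 copies of the GC box GGGCGG, which 35.7% of all windows contain. The second window, at chr17:34032100-34032399, held 0 YY1 matches and 4 GC boxes, and it does not reach the Slc39a7 window.

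The libraries held from 3676259 to 5432072 counts with paclitaxel and from 4585899 to 7791594 counts with vehicle (mean difference, paclitaxel minus vehicle, -952254; exact permutation test, two-sided, p = 0.167). At these depths 3 counts corresponded to between 0.385 and 0.816 CPM, the depth-scaled count used throughout. The lumbar Hox genes Hoxc10 (67.8 to 89.7 CPM over the 10 libraries) and Hoxa10 (47.7 to 55.7 CPM), the glycine transporter gene Slc6a5 (117 to 210.4 CPM) and the myelin gene Mbp (12270 to 14057 CPM) were present in every library, all markers of cord tissue. A list of 8 skeletal muscle and fat genes summed to at most 2.11 CPM under paclitaxel and 2.60 CPM under vehicle. Leaving out vehicle replicate 1 gave more genes at an unadjusted p under 0.05 than any other alternative (1299, against 806 with all libraries). It also gave the most genes whose groups did not overlap with paclitaxel lower (281, against 83). By their summed marker lists, 2 other libraries stood apart. Vehicle replicate 4 had the highest sum of meningeal and fibroblast genes, and in paclitaxel replicate 3 a list of 10 stress and glucocorticoid response genes summed to 1432 CPM, against 447 to 667 CPM in the other paclitaxel libraries and 437 to 857 CPM in the vehicle libraries. Paclitaxel replicate 3 was also the lowest of the 10 libraries in 9 of 15 marker lists. Its endothelial list summed to 149 CPM, against 196 to 242 CPM in the other paclitaxel libraries and 170.2 to 228 CPM in the vehicle libraries. Pericyte and smooth muscle genes summed to 81.5 CPM in it, against 121 to 142 CPM in the other paclitaxel libraries and 116 to 141 CPM in the vehicle libraries. Schwann cell and sensory ganglion genes summed to 589.7 CPM, with 724 to 780.4 CPM in the other paclitaxel libraries and 718 to 824 CPM in the vehicle libraries. For motor neurons the sum was 465 CPM, with 506 to 580.1 CPM in the other paclitaxel libraries and 536 to 643 CPM in the vehicle libraries, and for blood 62.2 CPM, with 97.1 to 276 CPM in the other paclitaxel libraries and 127 to 227 CPM in the vehicle libraries. Sums over all libraries ran from 5026 to 5777 CPM for astrocytes, from 5652 to 5944 CPM for neurons, from 265 to 352 CPM for microglia, from 225 to 280.1 CPM for oligodendrocyte precursors and from 81.8 to 103 CPM for ependyma.

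Across all tested genes the comparison of paclitaxel with vehicle called 0 genes (0%) at an adjusted p under 0.05 in edgeR's quasi-likelihood test, so none of the retinoid genes was called. There were 806 genes (6.07%) at an unadjusted p under 0.05, and DESeq2 called 1 gene and limma-voom 0. Of the 9 retinoid genes, 7 had a fold change below 0 on the log2 scale, against 50.9% of all tested genes. Their median log2 fold change was -0.10, beside -0.003 over all tested genes. The highest of 5 classes of tested genes by GC content holds 5 of the 9. In that class 76.6% of genes were below 0, with a median of -0.07. The groups did not overlap, with paclitaxel lower, in 1 of the 9, Rxrb, and in 0.625% of all tested genes, and nothing is read from that count because it chose the set.

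**Figure D1:**
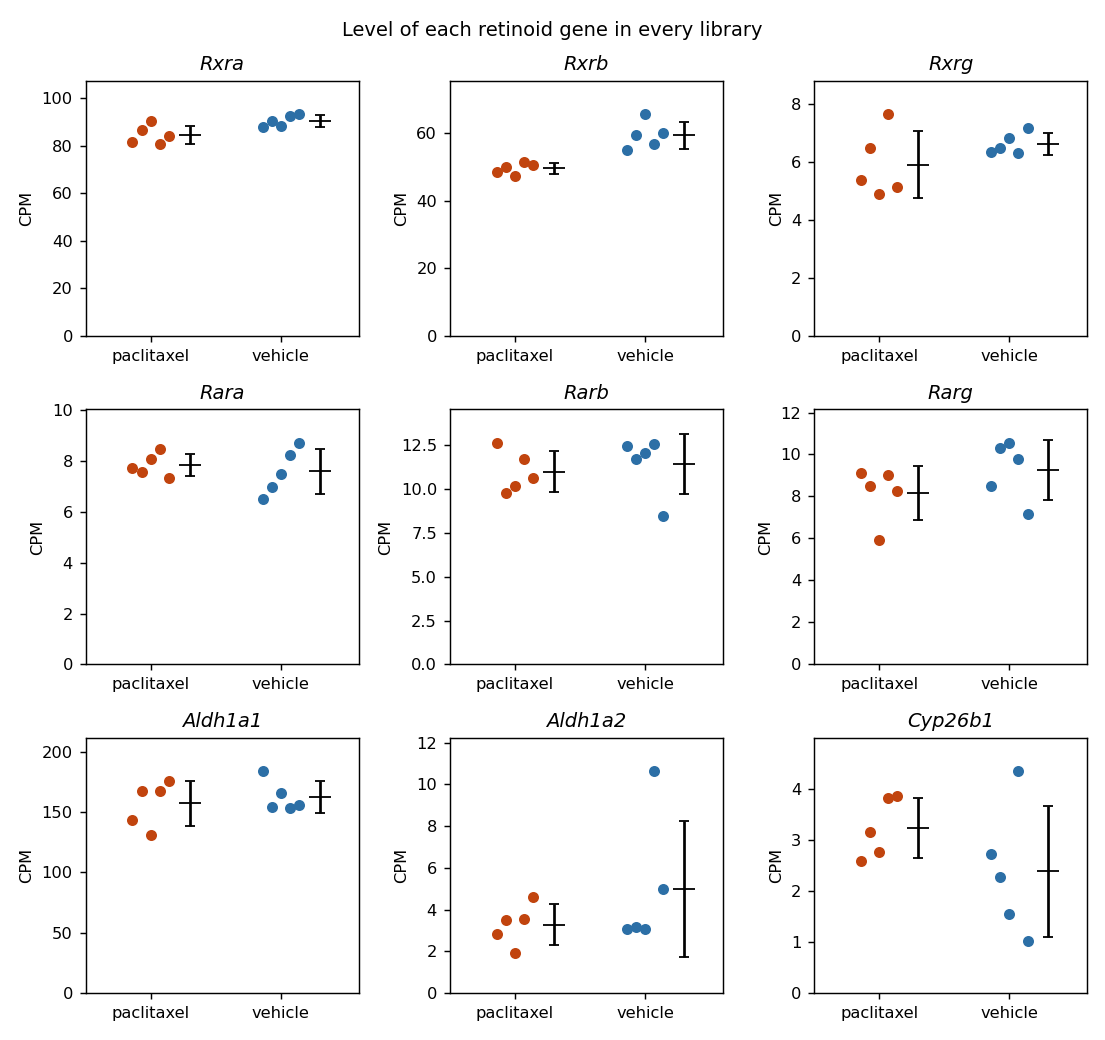
Level of each of the 9 retinoid genes in CPM on the vertical axis (from 0) in the 5 paclitaxel libraries (left) and the 5 vehicle libraries (right); each point is 1 library in the order of its replicate number, and the bar gives the mean and SD. The groups do not overlap for Rxrb, whose values chose the set, and overlap for the other 8. Vehicle replicate 4 stands at 10.6 CPM of Aldh1a2.

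RXRβ is the widely expressed RXR that forms pairs with the oxysterol and thyroid hormone receptors in many tissues. Rxrb lies on chromosome 17 from 34031812 to 34038403, among the genes of the major histocompatibility complex. It was at 48.5, 50.1, 47.3, 51.6 and 50.5 CPM in paclitaxel replicates 1 to 5 and at 55.0, 59.6, 65.6, 56.6 and 60.0 CPM in vehicle replicates 1 to 5. Every paclitaxel library lay below every vehicle library, and the highest paclitaxel minus the lowest vehicle library was -3.39 CPM. The means were 49.6 ± 1.67 CPM under paclitaxel and 59.3 ± 4.05 CPM under vehicle (SD, n = 5 each). This is a log2 fold change of -0.26 (SE 0.07), a ratio of 0.836 with a 95% interval from 0.756 to 0.925. With each library left out in turn it ran from -0.28 to -0.22. The counts behind it were 189 to 468 per library. In whole tissue, fewer cells that express a gene and less RNA of it per cell cannot be told apart.

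RXRα is the major RXR of most tissues. Rxra lies on chromosome 2 from 27676445 to 27763319. It was at 81.6, 86.5, 90.2, 80.5 and 83.9 CPM in paclitaxel replicates 1 to 5 and at 87.9, 90.5, 88.2, 92.4 and 93.2 CPM in vehicle replicates 1 to 5. Of the 5 paclitaxel libraries, 4 lay below the lowest vehicle library, and the exception was paclitaxel replicate 3, 2.36 CPM above it. The means were 84.5 ± 3.93 CPM under paclitaxel and 90.4 ± 2.41 CPM under vehicle (SD, n = 5 each), a log2 fold change of -0.10 (SE 0.06). Without paclitaxel replicate 3 the log2 fold change was -0.12, and with an adjustment for GC content and length it was -0.03.

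RXRγ is the most restricted of the 3 and is known from skeletal muscle, striatum and the oligodendrocyte lineage. Rxrg (chromosome 1, 167598362 to 167639623) was at 5.39, 6.47, 4.88, 7.64 and 5.14 CPM in paclitaxel replicates 1 to 5 and at 6.33, 6.46, 6.82, 6.29 and 7.18 CPM in vehicle replicates 1 to 5. The paclitaxel libraries spread more widely than the vehicle libraries, and paclitaxel replicate 4 held the highest value of all 10. The log2 fold change was -0.18 (SE 0.17), with a 95% interval that spanned 0. A list of 10 genes of mature oligodendrocytes summed to 21563 to 25461 CPM under paclitaxel and 22127 to 24592 CPM under vehicle.

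Summed per kilobase of transcript, the 3 RXR genes together reached 65.2 ± 1.53 CPM per kb with paclitaxel and 72.4 ± 2.00 CPM per kb with vehicle (SD, n = 5 each). The sums were 63.0 to 66.7 CPM per kb in the paclitaxel libraries and 69.2 to 74.3 CPM per kb in the vehicle libraries. The sum contains Rxrb, whose values chose the set, so its separation is no finding of its own, and the ranges overlapped after the GC adjustment described further on. Rxrb made up 30.0 ± 1.28% of the RXR sum with paclitaxel and 32.3 ± 1.61% with vehicle, and Rxra 65.2 ± 2.02% with paclitaxel and 62.8 ± 1.67% with vehicle (SD, n = 5 each). Rxrg made up 4.84 ± 0.939% with paclitaxel and 4.89 ± 0.189% with vehicle. These sums and shares use the median transcript length of each gene and depend on it. With the longest transcripts, Rxra stood at 17.8, Rxrb at 20.7 and Rxrg at 2.97 CPM per kb over the 10 libraries. Rxrb would then be the largest share.

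**Figure D2:**
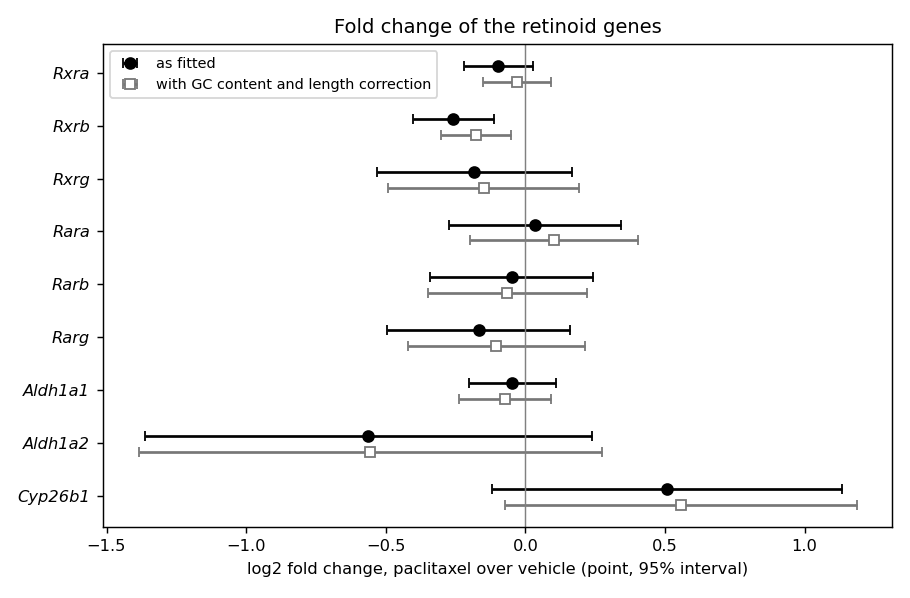
Log2 fold change of the 9 retinoid genes, paclitaxel over vehicle, with 95% intervals on the horizontal axis, as fitted (filled circles) and corrected for GC content and for length (open squares). The interval of Rxrb lies below 0 in both fits, at -0.26 as fitted and -0.18 with the correction, and those of the other 8 genes span 0. Rxrb was chosen by its values in this comparison, so its place below 0 is a description and not a test.

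Among the receptors that bind all-trans retinoic acid, no gene separated the groups. RARα is the general RAR of adult tissues, and Rara (chromosome 11, 98927800 to 98974942) was at 7.73, 7.58, 8.07, 8.46 and 7.34 CPM in paclitaxel replicates 1 to 5 and at 6.51, 6.99, 7.48, 8.25 and 8.72 CPM in vehicle replicates 1 to 5. The vehicle libraries enclosed the whole paclitaxel range. Its log2 fold change was 0.03 (SE 0.15), and it was -0.01 without vehicle replicate 1.

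Rarb, the receptor whose own gene retinoic acid induces, lies on chromosome 14 from 16430839 to 17082331. It was at 12.7, 9.80, 10.2, 11.7 and 10.6 CPM in paclitaxel replicates 1 to 5 and at 12.5, 11.7, 12.1, 12.6 and 8.46 CPM in vehicle replicates 1 to 5. Vehicle replicate 5 was the lowest of all 10 libraries and the other 4 vehicle libraries lay close together. The log2 fold change was -0.05 (SE 0.14), and -0.16 without vehicle replicate 5.

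RARγ is best known from skin and cartilage. Rarg (chromosome 15, 102234938 to 102257522) was at 9.14, 8.503, 5.94, 9.004 and 8.26 CPM in paclitaxel replicates 1 to 5 and at 8.497, 10.3, 10.6, 9.77 and 7.18 CPM in vehicle replicates 1 to 5. The groups overlapped, and paclitaxel replicate 3 was the lowest library. Here the log2 fold change was -0.17 (SE 0.16), and -0.07 without paclitaxel replicate 3. The 3 RAR genes together reached 8.88 ± 0.769 CPM per kb with paclitaxel and 9.34 ± 0.854 CPM per kb with vehicle (SD, n = 5 each), with Rarb the largest share in both groups (39.8 ± 1.97% with paclitaxel and 39.4 ± 3.66% with vehicle).

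Of the enzymes that make retinoic acid, Aldh1a1 was the most abundant retinoid gene and Aldh1a2 the most variable. ALDH1A1 oxidises retinaldehyde and is known in the brain from dopamine neurons and some glia. Aldh1a1 (chromosome 19, 20492583 to 20643463) was at 143, 167, 131, 168 and 176 CPM in paclitaxel replicates 1 to 5 and at 184, 154, 165, 153 and 156 CPM in vehicle replicates 1 to 5. The groups overlapped over most of their range. The log2 fold change was -0.05 (SE 0.07), and it was 0.01 without paclitaxel replicate 3 and 0.006 without vehicle replicate 1.

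ALDH1A2 is the main source of retinoic acid in the embryo and persists in the meninges. Aldh1a2 (chromosome 9, 71215789 to 71296243) was at 2.81, 3.51, 1.91, 3.55 and 4.59 CPM in paclitaxel replicates 1 to 5 and at 3.07, 3.14, 3.08, 10.6 and 5.00 CPM in vehicle replicates 1 to 5. Vehicle replicate 4 held more than any other library, and the remaining vehicle libraries lay within or just above the paclitaxel range. The means were 3.27 ± 0.991 CPM under paclitaxel and 4.99 ± 3.26 CPM under vehicle (SD, n = 5 each), a log2 fold change of -0.56 (SE 0.37). Without vehicle replicate 4 the log2 fold change was -0.15, and it was -0.01 with paclitaxel replicate 3 removed as well.

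The same vehicle library stood out in a list of 14 meningeal and fibroblast genes that does not contain Aldh1a2. The list summed to 71.1 to 88.2 CPM in the paclitaxel libraries and to 71.6 to 84.7 CPM in vehicle replicates 1, 2, 3 and 5, against 153 CPM in vehicle replicate 4. Of the 14 genes, 10 were highest in that library, and none was at 0 in every library. The part of meningeal tissue in the Aldh1a2 values was not tested beyond this. Of all tested genes with at least 0.5 times the spread of Aldh1a2, the nearest to it over the 10 libraries were Ehd2, Mgp, Rai14, Pglyrp1 and Smtn, with root mean square differences of 0.23 to 0.31 in centred log2 CPM. Mgp, which encodes matrix Gla protein, is also 1 of the 14 listed meningeal and fibroblast genes. These nearest genes were picked for likeness to Aldh1a2 in the same libraries, so the presence of Mgp among them is no finding of its own.

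**Figure D3:**
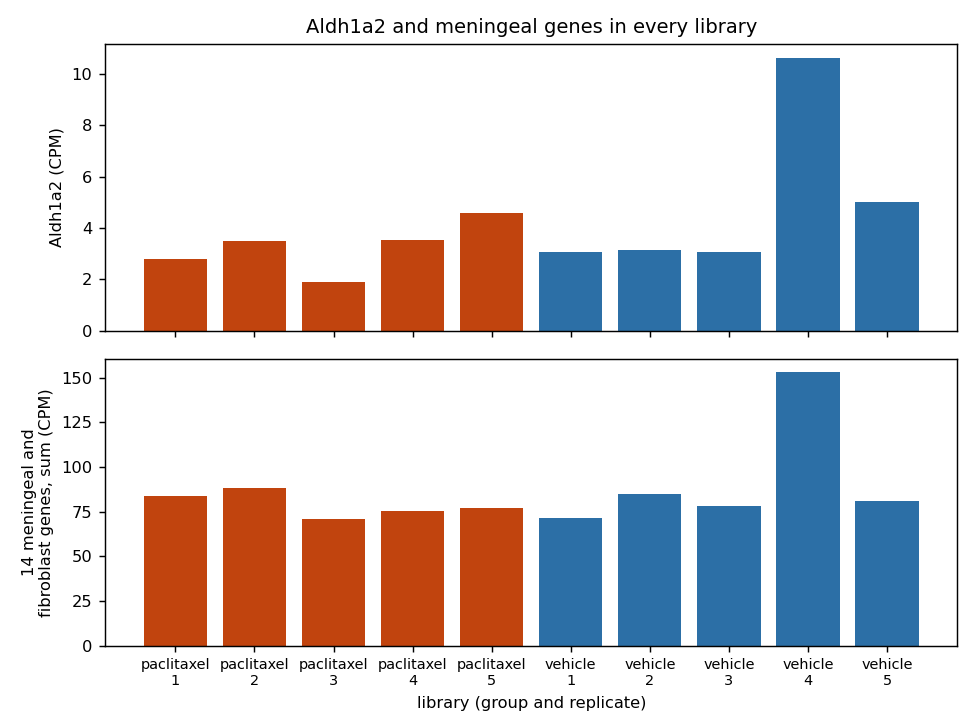
Aldh1a2 (upper bars, CPM) and the summed level of 14 meningeal and fibroblast genes (lower bars, CPM) in each of the 10 libraries, paclitaxel in orange and vehicle in blue. Vehicle replicate 4 is the highest library in both, at 10.6 CPM and 153 CPM.

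CYP26B1 is the retinoic acid hydroxylase of the adult central nervous system. Cyp26b1 (chromosome 6, 84571414 to 84593908) was at 2.58, 3.14, 2.76, 3.82 and 3.85 CPM in paclitaxel replicates 1 to 5 and at 2.71, 2.27, 1.54, 4.34 and 1.03 CPM in vehicle replicates 1 to 5. No paclitaxel library lay below the mean of the vehicle libraries, but vehicle replicate 4 was the highest of the 10. The means were 3.23 ± 0.59 CPM under paclitaxel and 2.38 ± 1.28 CPM under vehicle (SD, n = 5 each), and the log2 fold change was 0.51 (SE 0.30). It rested on 7 to 21 counts per library. It was 0.26 without vehicle replicate 5 and 0.81 without vehicle replicate 4.

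Paclitaxel replicate 3 was the library with the high glucocorticoid response list and the low vascular, blood, Schwann cell and motor neuron lists. It was also the lowest of 10 libraries for meninges and fibroblasts (71.1 CPM), oligodendrocytes (21563 CPM) and their precursors (225 CPM). The lowest vehicle libraries stood close above, at 71.6, 22127 and 229 CPM. Paclitaxel replicate 3 was the lowest paclitaxel library for 5 of the 9 genes (Rxrb, Rxrg, Rarg, Aldh1a1 and Aldh1a2) and the highest for Rxra. Without it the log2 fold change of Rxrb was -0.24. The part of these lists in the retinoid values was not tested.

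Levels of different genes were compared per kilobase of transcript, using the median length of each gene's transcripts. Aldh1a1 was highest at 77.8 ± 7.56 CPM per kb over the 10 libraries, followed by Rxra (43.98 ± 2.20 CPM per kb) and Rxrb (21.4 ± 2.33 CPM per kb; SD, n = 10 libraries). The ranges of these 3 genes did not overlap each other or those of the other 6. Then came Rarb (3.61 ± 0.453 CPM per kb), Rxrg (3.35 ± 0.474 CPM per kb), Rarg (3.07 ± 0.494 CPM per kb) and Rara (2.42 ± 0.214 CPM per kb), whose ranges overlapped from each gene to the next. Aldh1a2 (1.82 ± 1.08 CPM per kb) and Cyp26b1 (0.67 ± 0.25 CPM per kb) were lowest, and their ranges overlapped too. The order of Rxra and Rxrb depends on the length used, because the transcripts of Rxra range widely in length. With the longest transcript of each gene Rxra stood at 17.8 and Rxrb at 20.7 CPM per kb. Aldh1a1 exceeded 93.5% of tested genes in level per kilobase, Rxrb 72.5% and Cyp26b1 1.59%.

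**Figure D4:**
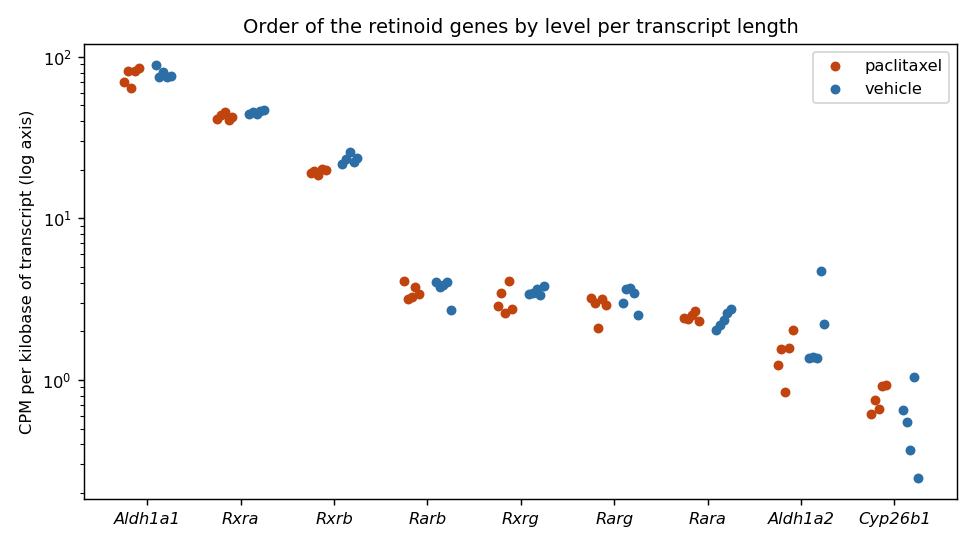
Level of the 9 retinoid genes per kilobase of transcript (CPM per kb, log axis), ordered by their mean, in each paclitaxel (orange, left) and vehicle library (blue, right). Aldh1a1, Rxra and Rxrb stand apart from the other 6 genes, which lie below 5 CPM per kb in every library.

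What most of these genes share beyond their pathway is GC-rich RNA. Rxrb transcripts held 61.1% G and C, more than 96.8% of tested genes, and 5 of the 9 genes (Rxra, Rxrb, Rara, Rarg and Cyp26b1) fell in the highest of 5 equal classes of tested genes by GC content. Fold changes of all genes moved with GC content in these libraries. The median log2 fold change was 0.07 in the class of lowest and -0.07 in the class of highest GC content. Some genes had paclitaxel libraries that all lay below the vehicle libraries. From the lowest to the highest class these were 0.264%, 0.189%, 0.529%, 1.13% and 1.02% of genes, so this share did not rise at every step. The levels in each library were then adjusted by loess for GC content and length, and the edgeR fit was repeated. In that fit the log2 fold change of Rxrb was -0.18 (SE 0.06, 95% interval -0.30 to -0.05). Corrected levels of Rxrb were 48.9 to 52.2 CPM under paclitaxel and 54.3 to 59.9 CPM under vehicle, still without overlap. Rxrb was chosen by its values in these same libraries, so this too is a description and not a test. The log2 fold change of Rxra was -0.03 after the correction, with ranges that overlapped. The summed RXR level was then 64.9 to 72.2 CPM per kb with paclitaxel and 68.3 to 74.2 CPM per kb with vehicle, and overlapped as well.

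**Figure D5:**
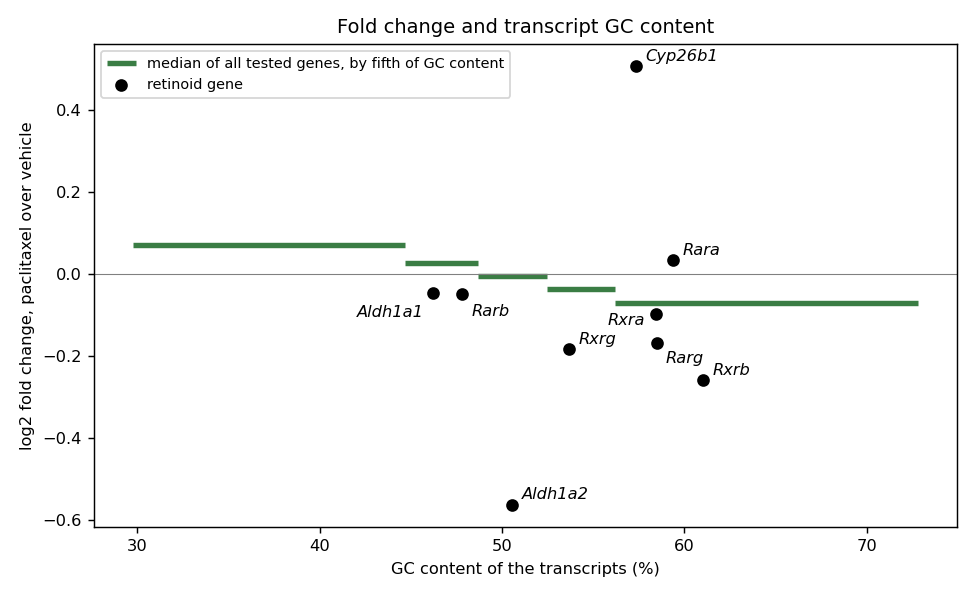
Log2 fold change of the 9 retinoid genes, paclitaxel over vehicle (points), against the GC content of their transcripts in percent, with the median of all tested genes in each of 5 classes of GC content (green lines). The medians fall from 0.07 in the lowest to -0.07 in the highest class, and Rxrb lies at -0.26 and 61.1% GC.

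A list of 5 genes was taken from the region around Rxrb on chromosome 17. Not all of them adjoin it, and Vps52 ends as far off as 33967038. Of the 5, 5 were below 0 in log2 fold change, against 50.9% of all tested genes and 76.6% of those in the class of highest GC content. In edgeR 0 were called (0 at an unadjusted p under 0.05). Slc39a7, with the shared promoter window shown above, was at 118, 131, 122, 142 and 136 CPM in paclitaxel replicates 1 to 5 and at 125, 139, 152, 137 and 141 CPM in vehicle replicates 1 to 5. The groups overlapped, and the log2 fold change was -0.09 (SE 0.06; edgeR adjusted p = 0.818). Col11a2, a collagen gene that starts 515 bases beyond the end of Rxrb, had a log2 fold change of -0.06 (SE 0.10; edgeR adjusted p = 0.95), which was 0.03 without paclitaxel replicate 1 and 0.02 after adjustment for GC content and length. The Polycomb gene Ring1 (-0.18), H2-Ke6, also called Hsd17b8 (-0.14), and the vesicle-tethering gene Vps52 (-0.11) completed the list, whose median was -0.11. After adjustment for GC content and length the log2 fold change was -0.03 for Slc39a7, -0.11 for Ring1, -0.05 for H2-Ke6 and -0.07 for Vps52.

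Among the tested genes with the profile most like that of Rxrb over the 10 libraries were Cdc42se1, Zfp219, Rnf8 and St6galnac4. Their root mean square difference from Rxrb in centred log2 CPM was 0.04 to 0.06. The nearest, Cdc42se1, was at 52.3 ± 2.77 CPM under paclitaxel and 59.7 ± 3.28 CPM under vehicle (SD, n = 5 each). These genes were picked for likeness to Rxrb in the same libraries. Their lower level with paclitaxel follows from that choice and is no finding of its own.

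Other genes of the pathway were read from 6 lists with 88 different genes, of which 62 passed the filter on low counts. In edgeR's quasi-likelihood test 0 were higher and 0 were lower at an adjusted p under 0.05. At an unadjusted p under 0.05 there were 3, and 28 had a log2 fold change above and 34 below 0. DESeq2 and limma-voom also called 0 of these genes.

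Genes that take up, carry and store retinol had a median log2 fold change of -0.01 (6 of 11 tested, 3 above and 3 below 0). Rbp4, the retinol carrier of plasma, was at 3.42 ± 0.32 CPM under paclitaxel and 2.71 ± 1.36 CPM under vehicle (log2 fold change 0.36, SE 0.27; edgeR adjusted p = 0.831). Its receptor Stra6 was at 2.50 ± 1.09 CPM under paclitaxel and 3.55 ± 1.97 CPM under vehicle (log2 fold change -0.45, SE 0.34; edgeR adjusted p = 0.831). Both were highest in vehicle replicate 4, the library with high meningeal genes, where Rbp4 was at 4.99 CPM and Stra6 at 6.94 CPM. Without it the log2 fold change was 0.66 for Rbp4 and -0.11 for Stra6. Lrat, which stores retinol as ester, held 42 counts over all libraries and was not tested. Lrp2, the endocytic receptor megalin, was the only tested pathway gene with paclitaxel lower without overlap, at 1.85 to 2.55 CPM under paclitaxel and 2.62 to 3.30 CPM under vehicle (log2 fold change -0.46, SE 0.24; edgeR adjusted p = 0.80). It was named after its values were seen, and 0.625% of all tested genes show this.

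Dehydrogenases that interconvert retinol and retinaldehyde had a median of -0.05 (9 of 18 tested, 3 above and 6 below 0). Rdh10, which makes the retinaldehyde for retinoic acid synthesis, had a log2 fold change of -0.05 (SE 0.17). Dhrs3, which turns retinaldehyde back into retinol, had a log2 fold change of -0.03 (SE 0.15). The third retinaldehyde dehydrogenase Aldh1a3 held 54 counts over all libraries, at means of 1.18 CPM under paclitaxel and 0.944 CPM under vehicle, and was not tested.

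Of the retinoic acid carriers and other breakdown enzymes 3 of 7 were tested, with a median of -0.05. Fabp5, which can carry retinoic acid to PPARδ, was at 104, 109, 85.1, 127 and 124 CPM in paclitaxel replicates 1 to 5 and at 140.3, 126, 135, 113 and 127 CPM in vehicle replicates 1 to 5. The groups overlapped and paclitaxel replicate 3 was lowest (log2 fold change -0.22, SE 0.09; edgeR unadjusted p = 0.0254, adjusted p = 0.792; -0.14 without paclitaxel replicate 3). Crabp1, which binds retinoic acid in the cytosol, was at 8.38 ± 1.77 CPM under paclitaxel and 7.94 ± 2.48 CPM under vehicle (SD, n = 5 each), a log2 fold change of 0.07 (SE 0.20). Crabp2, which delivers retinoic acid to RARs, held 15 counts over all libraries, Cyp26a1 held 6 and Cyp26c1 held 4, so that Cyp26b1 was the only Cyp26 gene deep enough to test.

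Receptors that pair with RXRs had a median of -0.06 (9 of 13 tested, 3 above and 6 below 0). The oxysterol receptor gene Nr1h2 had a log2 fold change of -0.10 (SE 0.09; edgeR adjusted p = 0.848), the fatty acid receptor gene Ppard of -0.02 (SE 0.13), the thyroid hormone receptor gene Thra of 0.005 (SE 0.06) and Nr4a1, the immediate early receptor NUR77, of 0.03 (SE 0.15). Thra was at 222 ± 8.88 CPM under paclitaxel and 221 ± 17.2 CPM under vehicle (SD, n = 5 each).

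Coregulators had a median of 0.03, with all 17 tested, 11 above and 6 below 0. The corepressor Ncor1 (log2 fold change 0.06, SE 0.07) holds unliganded RARs in the off state. Tbl1xr1, a subunit of its complex, was at 49.9, 52.9, 63.7, 66.0 and 60.7 CPM in paclitaxel replicates 1 to 5 and at 47.2, 48.4, 49.1, 44.3 and 47.2 CPM in vehicle replicates 1 to 5. All paclitaxel libraries lay above all vehicle libraries, which 0.467% of all tested genes show (log2 fold change 0.31, SE 0.08; edgeR unadjusted p = 0.00072, adjusted p = 0.792). Nrip1, a retinoic acid-induced corepressor, had a log2 fold change of -0.13 (SE 0.14).

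Genes that retinoic acid is known to induce had a median of -0.04 (22 of 28 tested, 8 above and 14 below 0), and some also stand in the other lists. Tgm2, the tissue transglutaminase, was at 15.3 ± 1.33 CPM under paclitaxel and 16.99 ± 2.27 CPM under vehicle (SD, n = 5 each), a log2 fold change of -0.14 (SE 0.12; edgeR adjusted p = 0.848). The homeobox gene Meis1 had a log2 fold change of -0.06 (SE 0.12). Hoxb6 was at 32.1, 34.4, 29.1, 27.6 and 32.5 CPM in paclitaxel replicates 1 to 5 and at 38.0, 40.2, 38.3, 42.3 and 33.8 CPM in vehicle replicates 1 to 5. The groups overlapped only between paclitaxel replicate 2 and vehicle replicate 5 (log2 fold change -0.30, SE 0.09; edgeR unadjusted p = 0.0025, adjusted p = 0.792).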

How the data were processed

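The authors deposited RSEM expected counts per gene for 10 libraries, not scaled to depth. Per the labels' protocols, column-purified RNA gave mRNA libraries sequenced on an Illumina instrument. Per the submitters' processing notes, the tools named are STAR, RSEM and edgeR 4.2.0, and the build is mm10. Which STAR and RSEM versions, annotation and strand setting applied is not stated in those notes or in the labels. Fractional values (5.04%) were rounded.

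Counts were filtered with filterByExpr at its defaults (minimum count 10, minimum total 15) in edgeR 4.0.16 (R 4.3.3), scaled by TMM and tested by quasi-likelihood with no covariate, with Benjamini-Hochberg adjustment and a threshold of 0.05, two-sided. This was checked on simulated counts. CPM values use TMM library sizes (prior count 2 for log2 CPM). Transcript lengths and GC content (99.7% of tested genes) came from GENCODE release M21, and positions and promoters from RefSeq on GRCm38, which mm10 names. Libraries of the same group differed by more than sampling noise in every pair (lowest ratio of chi-square to its degrees of freedom 1.59). Alternatives were other scalings and filters, DESeq2 1.42.0, limma-voom (limma 3.58.1), the replicate number as a block, the GC and length correction and leaving out libraries.

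The members and lists were chosen with earlier results of these data known. Named were the 9 members, pathway genes listed by role, pathway genes with an unadjusted p under 0.05, and the 5 genes nearest in profile to Rxrb and to the member of widest spread. Lists covered the pathway, the surroundings of Rxrb and 15 sets of markers for cell types, lumbar cord and stress response. A few genes that this rule names are not reported here.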

Additional observations from a re-analysis of the deposited data

Results flagged for a closer look

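Of 58 groups of 5 libraries checked (29 genes in 2 groups), 7 held a library far from the other 4, where chance flags about 1 in 20. In paclitaxel replicate 3, Rarg was at 5.94 CPM, with the next library at 8.26 CPM, Rdh10 was at 11.5 CPM, with the next at 7.71 CPM, and Ncor1 was at 188 CPM, with the next at 161 CPM. In vehicle replicate 4, Aldh1a2 was at 10.6 CPM, with the next at 5.00 CPM. In vehicle replicate 5, Rarb was at 8.46 CPM, with the next at 11.7 CPM. In vehicle replicate 1, Ppard was at 19.3 CPM, with the next at 29.2 CPM, and Meis1 was at 27.7 CPM, with the next at 21.8 CPM.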

How the results depend on the processing

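Over 21 alternatives each, the log2 fold changes of the 9 retinoid genes kept their sign in 185 of 189 cases, and the exceptions were Aldh1a1 (2), Rara (1) and Rarb (1), each at most 0.01 in size when rounded. No retinoid or pathway gene was called under any of them. The log2 fold change of Rxrb was -0.18 with the GC and length correction and -0.18 when the replicate block was added. The correction takes GC content and length together, and their separate parts were not tested. Non-overlap with paclitaxel lower held for 2 of the 9 genes without paclitaxel replicate 3, and for 2 without that library and vehicle replicate 4, Rxra joining Rxrb, which follows from removing the only overlapping library. With single libraries left out, such genes numbered 93 to 281 among all tested, against 83, and were 180 without both libraries. Fewer libraries overlap less often, but what set the range was not tested. Genes at an unadjusted p under 0.05 numbered 515 to 1299 with single libraries left out and 508 without both, against 806. Both highest counts, 281 and 1299, came without vehicle replicate 1, and the cause was not tested. DESeq2 called 1 gene (Klf4), and the replicate block 1 gene (Fos), with the correction too 1. The log2 fold change of Rxrb was -0.26 with the replicate block. The replicate numbers were not treated as pairing in the main fit. Same-numbered libraries correlated between -0.10 and 0.14. Of 10 libraries, 5 correlated best with their own number, with 5 candidates for each. These values do not decide whether the numbers mark pairs. The mean difference in library totals ran from -1220184 to -418760 with single libraries left out. The medians of 5 of the 6 pathway lists changed sign under at least 1 alternative. Without a filter, the retinol uptake list had a median of -0.26. Depth limits Cyp26b1 and Aldh1a2 most, at 139 and 215 counts in all.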
